A study of Mus musculus with 4 samples.

Results

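The 5p arms of the mouse miRNAs numbered miR-6880 to miR-7120 form a block of 205 among the 1881 mouse miRNAs read by the array. They were chosen by name alone, as every mouse miRNA whose number lies in this range, with or without a letter after it, and whose name ends with the 5p suffix. No measured value entered this rule, though earlier results of these data were known when it was set. RNA came from exosomes that 3T3-L1 cells, a mouse fibroblast-like line that turns into fat cells in culture, had released into their medium. Media were taken on day 0 (D0), day 4 (D4), day 12 (D12) and day 16 (D16), counted from the move into differentiation medium, to follow exosomal miRNAs as the cells matured. At D0 the cells had been in growth medium of low-glucose DMEM. For the later days they were moved to high-glucose DMEM with 1-methyl-3-isobutylxanthine, dexamethasone and insulin, and after 2 days to the same medium with insulin alone. Serum in all media was depleted of its own exosomes, and penicillin and streptomycin were present throughout. Exosome fractions were spun down by ultracentrifugation, so vesicles and other particles of like sedimentation were not told apart. The methods describe material from 2 experiments mixed at equal protein for each day, while the sample descriptions speak of 3 experiments. Each day was read on 1 single-colour array, so the study has no replicate, and no test between days could be made. Errors below are technical errors of the scanner software, which describe the spots of 1 array and not the spread between cultures. The array holds no mRNA, so adipocyte markers could not be read from it.

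A miRNA hairpin is cut into a duplex of 2 strands, the 5p arm and the 3p arm, and usually 1 of them is kept in Argonaute while the other is lost. Bases 2 to 8 of the kept strand, the seed, pair with target mRNAs. Many high-numbered mouse miRNAs come from short introns or from intron ends, and are called mirtrons or tailed mirtrons. There, splicing rather than Drosha makes an end of the hairpin, so that the hairpin ends with the AG of the splice acceptor. In such hairpins a purine-rich 5p arm faces a pyrimidine-rich 3p arm that holds the polypyrimidine tract of the intron.

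The block had these features. In the RefSeq gene table all 205 members lay inside the span of another gene, in each case a protein-coding one, whereas 77.9% of all 1228 miRNA genes of that table lay inside the span of a gene that is no miRNA. The table gives no exons, so intron ends were not mapped. RefSeq hairpins of assembly GRCm38.p6 were found for 175 members, and 92.6% of these hairpins ended in AG, compared with 23.7% of all 1005 hairpins. A hairpin that starts in GU, the splice donor, was found for 15.4% of the members and 7.66% of all hairpins. The 3 hairpins below show this layout for members on which the results turn. Capitals mark the 5p arm and then the 3p arm, and the sequences are RefSeq's.
Mir7036: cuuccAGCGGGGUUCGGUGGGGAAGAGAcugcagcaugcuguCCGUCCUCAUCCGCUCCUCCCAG
Mir7118: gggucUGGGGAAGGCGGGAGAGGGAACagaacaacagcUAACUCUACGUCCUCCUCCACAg
Mir7011: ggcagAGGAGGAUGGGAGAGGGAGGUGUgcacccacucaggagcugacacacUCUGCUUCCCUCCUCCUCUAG
On GRCm38.p6 these lie on the minus strand at chr5:137296624-137296688 inside Srrt, chr15:89162848-89162908 inside Plxnb2 and chr3:88440879-88440951 inside Sema4a. All 3 end in AG, and in each the 3p arm reaches the end of the hairpin to within 1 base.

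Mature sequences in the same RefSeq table matched 181 of the 205 members. Not matched were, among the detected members, miR-6906-5p, miR-6935-5p, miR-7040-5p and miR-7042-5p. The 16 below are matched members that were among the brightest, had the largest or smallest D12/D0, or share a seed with another detected member. The exception is miR-7082-5p, printed because the study's tables of changed miRNAs list it. Capitals mark the seed.
miR-7036a-5p: aGCGGGGUucgguggggaagaga
miR-7118-5p: uGGGGAAGgcgggagagggaac
miR-7047-5p: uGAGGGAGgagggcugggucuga
miR-6965-5p: aGAGGGAGgcuauugggcaggaga
miR-6944-5p: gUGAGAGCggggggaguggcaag
miR-6931-5p: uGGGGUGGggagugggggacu
miR-7011-5p: aGGAGGAUgggagagggaggugu
miR-7082-5p: uACGGGCAggaggaggggagg
miR-7005-5p: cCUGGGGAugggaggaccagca
miR-6898-5p: uGUAAGGGgagaugcagggagc
miR-6927-5p: gUGAGGGGauccagcccaggcu
miR-7070-5p: gUGAGGGGagcugaggcagga
miR-6937-5p: uAGCUGUAagggcugggucugugu
miR-6908-5p: uUGCCUGUcagggagagcccca
miR-6969-5p: cAGCAGAGuagggagcaaaaga
miR-6948-5p: aGUUCAGAcaggacugugacac
The G content of the 16 runs from 27.3% in miR-6948-5p to 66.7% in miR-6931-5p. The median member was 43.5% G (SD 9.06, n = 181) and 68.2% purine, whereas the median 3p arm of the block was 14.3% G (SD 7.56, n = 180) and 27.9% purine. The median over all miRNAs of the array was 26.3% G. At least 1 run of GGG was present in 75.7% of the members, in 4.44% of the 3p arms and in 30.4% of all miRNAs. Because the hairpin is a duplex, a G-rich 5p arm and a C-rich 3p arm go together.

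Most members were not detected. A miRNA was called detected by the software when at least 1 of its probes exceeded 3 times the error of that probe. Of the 205 members, D0 had 35 above this limit, D4 30, D12 28 and D16 26. These are 17.1%, 14.6%, 13.7% and 12.7% of the members, while 17.5%, 22.6%, 21.6% and 20.2% of all miRNAs were detected on the same days. The members were thus near the background at D0 and below it on the 3 later days. In all, 39 members (19.0%) were detected on at least 1 day, 21 on all 4 days, and 166 on no day, while of all 1881 miRNAs 467 (24.8%) were detected on at least 1 day, 283 on all 4 days and 1414 on no day. For the 3p arms of the block the counts were 66, 83, 79 and 72 of 204, lowest at D0, where that of the members was highest. With 50% of the spots of a probe required to be above background, 24 members were detected at D0 and 25 at D4. The members' count at D0 was then no longer the highest. From D0 to D12, 3 members were gained and 10 lost, whereas 13 of the 3p arms were gained and none lost, and over all miRNAs 109 were gained and 32 lost. A lower signal in such a pooled fraction can come from fewer vesicles or from less of a miRNA in each, and these cannot be told apart.

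**Figure D1:**
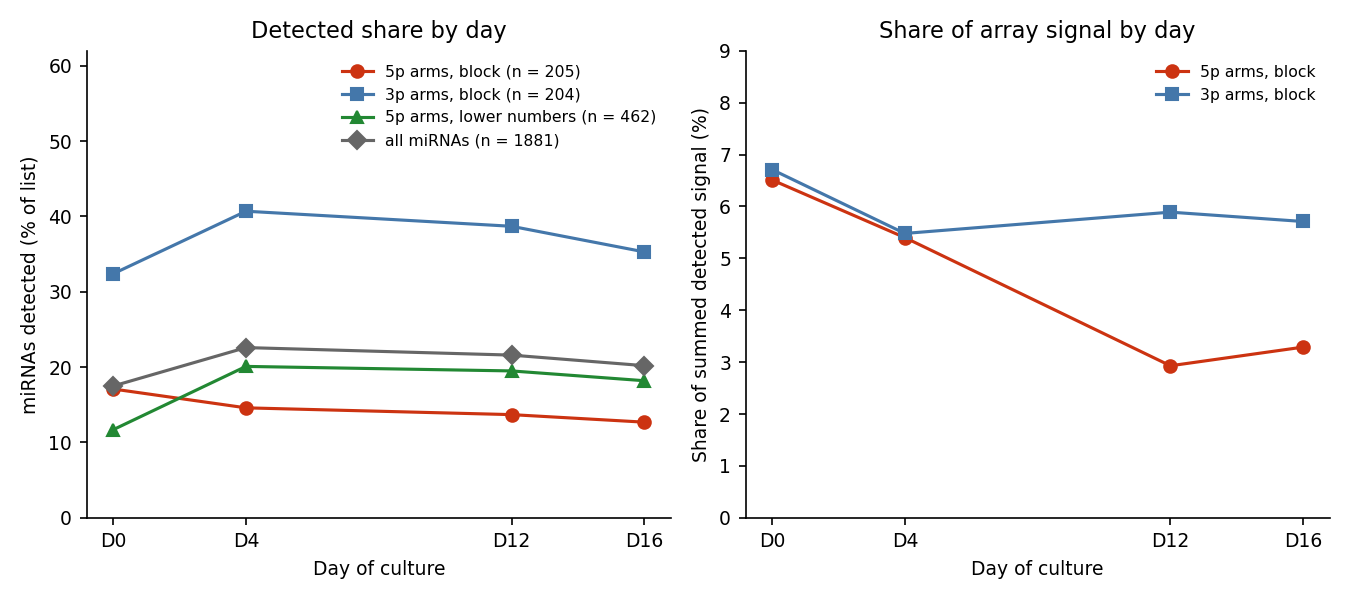
Left, the share of each list that was detected on each array (y axis, percent) against the day of culture (x axis). Right, the share of the summed signal of all detected miRNAs that the 5p and the 3p arms of the block carried (percent). The 5p arms fell from 17.1% detected at D0 to 12.7% at D16, and their share of the signal was 2.93% at D12 against 5.89% for the 3p arms.

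Of the summed signal of an array, the members carried 6.51% ± 0.168 (technical error) on D0, 5.40% ± 0.152 on D4, 2.93% ± 0.0950 on D12 and 3.29% ± 0.111 on D16. A share within an array does not change with a factor common to that array. It was highest at D0, and both late days lay below both early days. The 3p arms of the block held 6.71%, 5.48%, 5.89% and 5.71%, and so stayed within a narrow band. A few members made up most of the signal. miR-7036a-5p, miR-7118-5p, miR-7047-5p and miR-7042-5p together held between 56.4% and 63.3% of the members' summed signal on each day. Without these 4, the remaining members held 2.84%, 1.98%, 1.17% and 1.34% of the array's signal.

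The whole array brightened after D0, and this bears on every ratio to D0. The median ratio over all miRNAs detected on both days was 2.47 for D4/D0, 1.91 for D12/D0 and 1.32 for D16/D0. The spike-in control RNAs were brighter as well, at 1.82, 1.72 and 1.27 times their D0 signal. The effective spot size set by the software also differed, at 0.6 on D0 and D16, 0.780 on D4 and 0.760 on D12. With this size divided out, the median over all miRNAs was 1.90, 1.51 and 1.32. The D0 array was also uneven. Its spots of 1 member had a median coefficient of variation of 26.1%, compared with 10.9% to 15.7% on the other arrays. The left of the array was dimmer for 35 of the 35 members detected there (median left over right 0.668). It was dimmer for 326 of all 329 miRNAs detected there (median 0.678), so this was a trait of the array. Values are therefore given against D0, as the study did, and also as D12/D4, which leaves the D0 array out. The part that unequal labelling or scanning had in the ratios was not tested.

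At D4 the members' median ratio was near that of the array. The median of 29 members detected on both days was 2.26 for D4/D0, beside 2.47 for all miRNAs. Of these 29, 17 were above 2-fold and none was below 0.5-fold, that is 58.6% and 0% beside 62.1% and 0.315% of all 317 miRNAs. The direction turns with the scaling: divided by the 75th percentile of each array the members' median was 0.532, and that of all miRNAs 0.579.

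At D12 the members fell behind. The median D12/D0 over 25 members was 1.17, beside 1.91 for all 297 miRNAs and 1.90 for 66 of the 3p arms. Of the 25 members, 6 were above 2-fold (24.0%, beside 47.8% of all miRNAs) and 4 were below 0.5-fold (16.0%, beside 3.37%). Of the 10 miRNAs of the whole array that were below 0.5-fold, 4 were thus members. These counts rest on unscaled ratios. The study's tables list 7 members below 0.5-fold and no member above 2-fold. They use the same fold limits, but on ratios that differ from these. The study also kept only miRNAs with a signal above the median at any time point, which was not asked for here. The members ran from 0.337 to 3.69, while the lowest of the 3p arms was at 1.32. With the spike-in RNAs as the scale the members' median was 0.679, and with the 75th percentile 0.355. Whether the median member rose or fell from D0 therefore depends on the scale. Relative to all miRNAs, the members' median was 0.611 of the array's median, a quotient that 1 factor per array cannot change, and 19 of 25 members were below the array's median. The quotient was 0.460 after quantile normalization and 0.882 with normexp background correction, so its size moved with the processing while it stayed under 1.

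At D16 the median of 24 members was 0.750, beside 1.32 for all 289 miRNAs and 1.24 for the 3p arms. Here 5 members were above 2-fold (20.8%, beside 31.1%) and 10 were below 0.5-fold (41.7%, beside 9.34%). The ratios to D4, D12 and D16 share the D0 array and are not independent of each other.

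Between D4 and D12 the members fell further than the rest of the array. The median D12/D4 was 0.476 over 23 members, 0.865 over all 374 miRNAs and 0.913 over 77 of the 3p arms. No member was above 2-fold, beside 4.81% of all miRNAs, and 13 were below 0.5-fold (56.5%, beside 15.0%). Only 2 of the 77 3p arms were below 0.5-fold. The members' median stayed under 1 with every scale tried, from 0.476 to 0.742. The detection call asks for both days, so members that were lost by D12 are not in these medians.

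**Figure D2:**
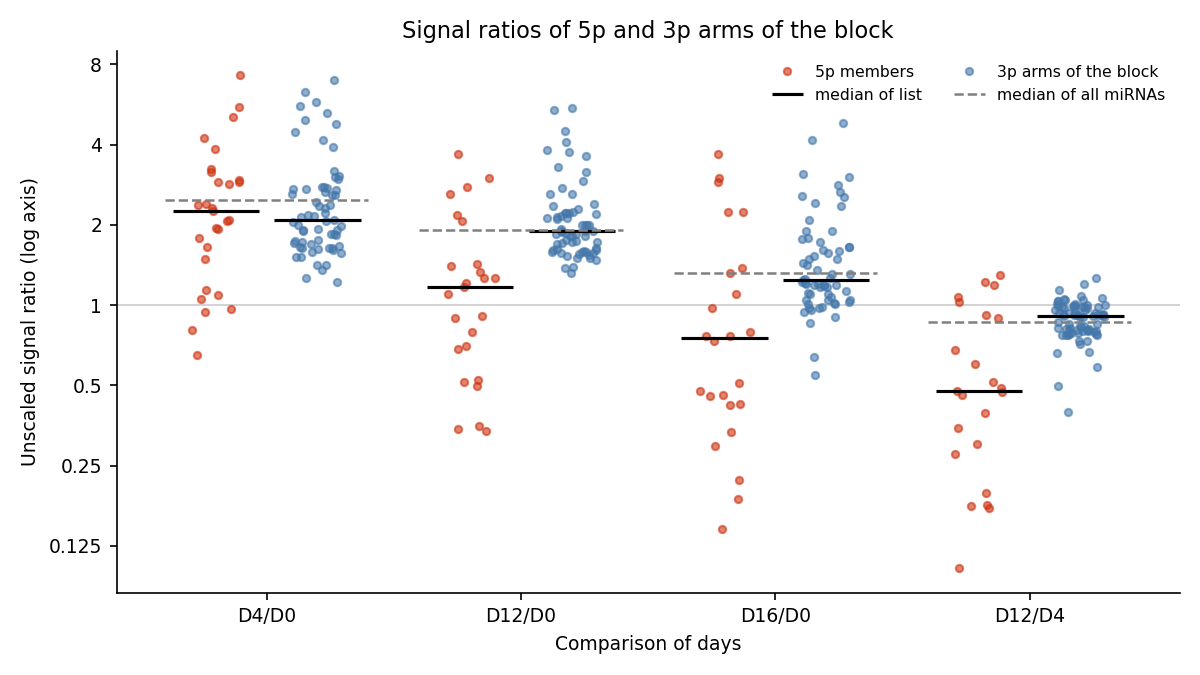
Each point is the unscaled ratio of total gene signals (y axis, log scale) of 1 miRNA detected on both days of the comparison (x axis). Black bars are list medians and dashed lines the medians of all miRNAs. The 5p members and the 3p arms overlap at D4/D0, with medians of 2.26 and 2.09, and at D12/D4 the members centre on 0.476 and the 3p arms on 0.913.

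Ranks need no scale. Among the 283 miRNAs detected on all 4 days, ranked from the brightest, the 21 members had a median rank of 106, 147, 211 and 190 in the order of days. From D0 to D4, 15 of the 21 members moved down, and 160 of the 283 miRNAs. From D0 to D12, 16 of the 21 members moved down, as did 159 of the 283 miRNAs. From D4 to D12, 14 of 21 moved down, against 94 of 283. Signals of different miRNAs come from different probes, so ranks are used here only for the same miRNA across days.

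The bright members split into several courses. miR-7036a-5p, from a hairpin inside Srrt, read 152 ± 11.2 (technical error) on D0, 491 ± 35.2 on D4, 136 ± 9.88 on D12 and 116 ± 8.39 on D16. Without scaling it peaked at D4 (D4/D0 3.24 ± 0.334, beside a median of 2.47 over all miRNAs). In the study's own ratios its D4 value was slightly below that of D0. Without scaling it then came back to slightly below its D0 signal (D12/D0 0.898 ± 0.0931). Scaled, D12/D0 was lower, at 0.522 with the spike-in RNAs, 0.372 with quantiles and 0.273 with the 75th percentile. Its rank among detected miRNAs went from 11 and 12 on the early days to 46 and 30 on the late days.

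Without scaling, miR-7047-5p had the same shape and ended lower. Its signals were 97.6 ± 8.84, 376 ± 33.8, 66.7 ± 6.08 and 41.0 ± 3.80 in the order of days. D12/D4 was 0.178 ± 0.0228 and D12/D0 0.684 ± 0.0879. It ranked 19 and 15 early, 82 and 95 late.

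miR-7118-5p, from inside Plxnb2, read lower at D12 and D16 than at D0. It read 138 ± 10.2, 246 ± 17.7, 48.5 ± 3.81 and 30.6 ± 2.53. D12/D0 was 0.351 ± 0.0379, D16/D0 0.221 ± 0.0246 and D12/D4 0.197 ± 0.0210. Its rank moved from 13 at D0 to 102 at D12.

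miR-6944-5p, from inside Dbn1, rose and fell over the widest range, with 23.3 ± 2.26, 118 ± 9.82, 12.2 ± 1.64 and 7.79 ± 1.17. Its D12/D4 of 0.103 ± 0.0164 was the lowest of the 23 members. miR-6931-5p, inside Dcakd, read 28.8 ± 2.40, 68.9 ± 5.22, 33.7 ± 2.88 and 22.1 ± 2.01, and miR-6937-5p, inside Adi1, 25.6 ± 2.52, 59.3 ± 5.65, 23.3 ± 2.49 and 10.9 ± 1.41. Without scaling, both were higher at D4 than at D0 (2.39 ± 0.269 and 2.32 ± 0.317), beside a median of 2.47 over all miRNAs. Their ranks went down between these days, from 63 to 92 and from 72 to 97. At D12 they were, without scaling, back near the D0 signal, with D12/D0 of 1.17 ± 0.139 and 0.911 ± 0.132. These became 0.679 and 0.529 with the spike-in RNAs, and 0.355 and 0.277 with the 75th percentile.

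miR-7011-5p, inside Sema4a, did not rise at D4. It read 27.7 ± 2.31, 26.8 ± 2.54, 9.32 ± 1.69 and 4.01 ± 0.965. Its D12/D0 of 0.337 ± 0.0674 was the lowest of the 25 members. Its D16/D0 was 0.145 ± 0.0369, but only 1 of its 2 probes was summed at D16, and on that probe alone the ratio was 0.266. miR-6898-5p, inside Kansl3, read 10.4 ± 1.39, 20.2 ± 2.21, 3.56 ± 1.16 and 3.07 ± 0.929, and its D12/D0 was 0.343 ± 0.121. At D12 and D16 only 1 of its 2 probes was summed. miR-7005-5p, inside Lama5, read 17.9 ± 1.92, 29.5 ± 2.99, 8.91 ± 1.42 and 8.56 ± 1.23, with a D12/D0 of 0.498 ± 0.0953, which lies within its error of the 0.5-fold limit. With only the probe that was summed on both days, D12/D0 was 0.542 for miR-6898-5p and 0.607 for miR-7005-5p, so neither was then below 0.5-fold. miR-7082-5p, inside Raver1, read 22.5 ± 2.04, 33.5 ± 2.93, 15.8 ± 1.95 and 16.6 ± 1.71, a milder fall (D12/D0 0.702 ± 0.107).

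Against these, 6 members were above 2-fold at D12/D0. The 5 with the largest ratios follow. miR-7042-5p, inside Tatdn2, read 79.3 ± 6.78, 226 ± 18.8, 293 ± 23.8 and 239 ± 19.3. Its D12/D0 of 3.69 ± 0.435 was the highest of the 25 members, and its 2 probes gave 4.01 and 3.61. It climbed from rank 24 at D0 to 12 at D12 and 9 at D16, and held 32.2% of the members' summed signal at D12 after 9.58% at D0. Without it, the members' share of the array's signal was 5.89%, 4.83%, 1.99% and 2.20%.

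miR-6969-5p, inside Clps, read 9.99 ± 1.37, 29.0 ± 2.65, 29.8 ± 2.63 and 36.8 ± 2.90, and was highest at D16. Its D12/D0 was 2.99 ± 0.487. miR-7040-5p, inside Loxl3, read 12.0 ± 1.45, 50.7 ± 3.97, 26.2 ± 2.43 and 26.8 ± 2.27 (D12/D0 2.18 ± 0.332). miR-6906-5p, inside Spock2, read 3.53 ± 0.894, 10.4 ± 1.85, 9.25 ± 1.70 and 3.43 ± 0.943, with a D12/D0 of 2.62 ± 0.820. miR-6948-5p, inside Acin1, read 2.89 ± 0.871 at D0 and 8.05 ± 1.66 at D12, was not detected at D4 and D16, and had a D12/D0 of 2.78 ± 1.01. On the probe summed on both days, D12/D0 was 1.60 for miR-6906-5p and 1.54 for miR-6948-5p, so neither was then above 2-fold. For miR-6969-5p, miR-7040-5p, miR-6906-5p and miR-6948-5p the D12/D0 fell below 1 when each array was divided by its 75th percentile, at 0.908, 0.663, 0.797 and 0.846, while miR-7042-5p stayed above 1 under every alternative, the lowest being 1.12. miR-6908-5p, inside Pdxk, read 65.4 ± 6.17, 155 ± 14.4, 92.9 ± 8.97 and 89.9 ± 8.73, and lay between both sets (D12/D0 1.42 ± 0.192). Its 2 probes gave 0.836 and 1.48, on either side of 1, and the second was much the brighter.

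**Figure D3:**
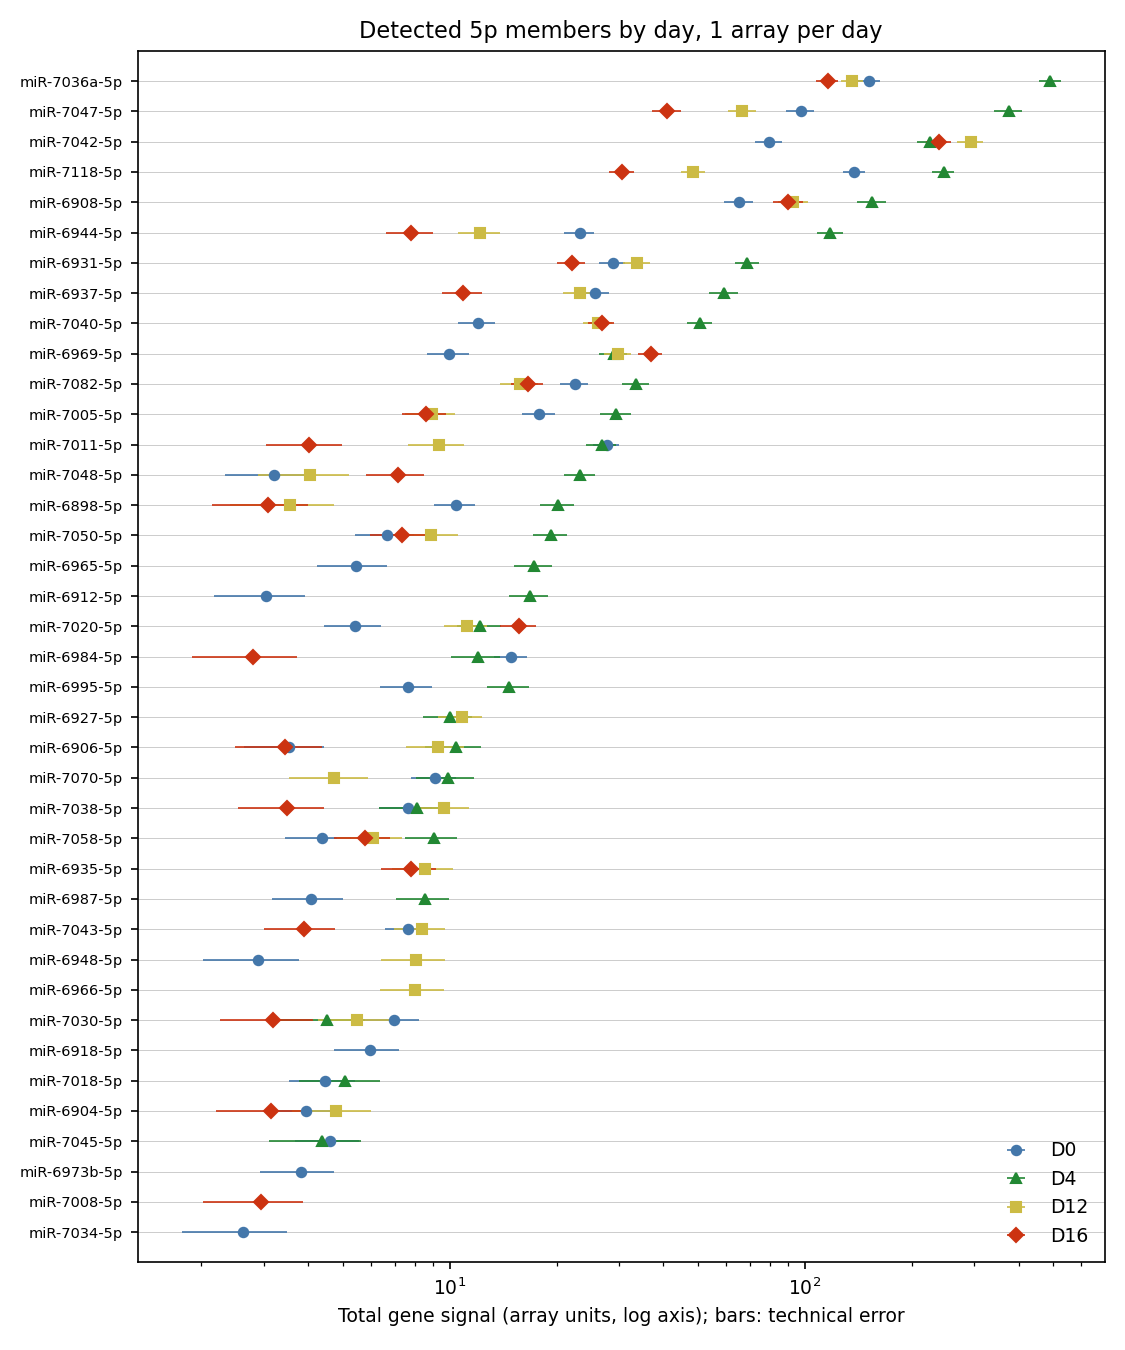
Total gene signal (x axis, array units, log scale) of each of the 39 members detected on at least 1 day (y axis, ordered by highest signal). Symbols mark the days, bars are the technical error of the software, and days without detection are left out. miR-7042-5p is one of the few with D12 and D16 far above D0, at 293 and 239 against 79.3, whereas miR-7118-5p has both late days at 48.5 and 30.6, below 138.

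Members detected on some days only were dim. Of the 10 members lost between D0 and D12, miR-6984-5p was the brightest at D0, with 14.9 ± 1.59 there, 12.0 ± 1.89 at D4, no detection at D12 and 2.80 ± 0.920 at D16. Its D12 signal was at most 0.462 of that at D0, taking 3 times the error of its probes as the limit. miR-6995-5p read 7.63 ± 1.28 and 14.7 ± 1.98 on the early days and was not detected later, so that D12 was at most 0.455 of D4. miR-6965-5p read 5.45 ± 1.23 and 17.3 ± 2.08 (D12 at most 0.396 of D4). miR-7045-5p read 4.61 ± 0.942 and 4.36 ± 1.27, and its limit at D12 lies above these values. miR-6918-5p was called only at D0, at 5.97 ± 1.24. With all its probes summed whether called or not, it read 5.97, 5.64, 6.04 and 3.62, so the loss of the call at D4 and D12 did not go with a lower signal.

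Summed in this way over all probes, 8 of the 10 lost members were lower at D12 than at D0 and 2 were higher, with a median ratio of 0.492 and a range from 0.439 to 1.08. The limit, 3 times the error summed over the probes, had a median over the members of 4.91 at D0 and 6.58 at D12. A single probe above its own limit was enough for a call, so some detected members lie below these medians. The 4 members that were not detected at D0 were dim as well. miR-6927-5p read 10.0 ± 1.57 at D4 and 10.8 ± 1.55 at D12, at least 2.01-fold and 2.16-fold above its limit at D0. miR-6935-5p read 8.54 ± 1.68 at D12 and 7.78 ± 1.36 at D16, miR-6966-5p 8.01 ± 1.66 at D12, and miR-7008-5p 2.94 ± 0.925 at D16. The last of these is below its limit at D0 of 4.91, so no change from D0 can be given for it.

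Both arms of a hairpin come from 1 precursor, and the arms could be compared within an array. Of 203 hairpins with both arms on the array, 12, 13, 13 and 9 had both arms detected in the order of days. Only the 5p arm was detected in 23, 17, 15 and 17 hairpins, and only the 3p arm in 54, 70, 66 and 63. The count of hairpins seen through their 5p arm alone was highest at D0, when that of the 3p arm alone was lowest.

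In 7 hairpins both arms were detected on all 4 days, and there the arms parted. The 5p D12/D0 was below the 3p D12/D0 in 7 of 7 (medians 0.684 and 2.20), and the D12/D4 likewise in 7 of 7 (medians 0.302 and 0.811). A factor common to an array cancels when the change of the 5p arm is divided by that of the 3p arm. For D12/D0 this quotient ran from 0.0926 in miR-7005 to 0.608 in miR-7036a. For D12/D4 it ran from 0.221 in miR-7047 to 0.948 in miR-7058, where the arms hardly differed. At D4 against D0 the 5p arm was behind in 5 of 7, and ahead in miR-7036a (2.30) and miR-7047 (1.39).

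The 3p partner of miR-7118-5p read 12.5, 32.7, 26.5 and 21.6 while the 5p arm went from 138 to 30.6. miR-7011-3p read 42.0, 115, 92.2 and 69.4 while its 5p arm went from 27.7 to 4.01. miR-7047-3p read 70.0, 194, 156 and 113, and so remained, without scaling, above its D0 signal on the days when the 5p arm was below. miR-7005-3p was dim at D0, at 2.09, and read 12.1, 11.2 and 5.32 on the later days.

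**Figure D4:**
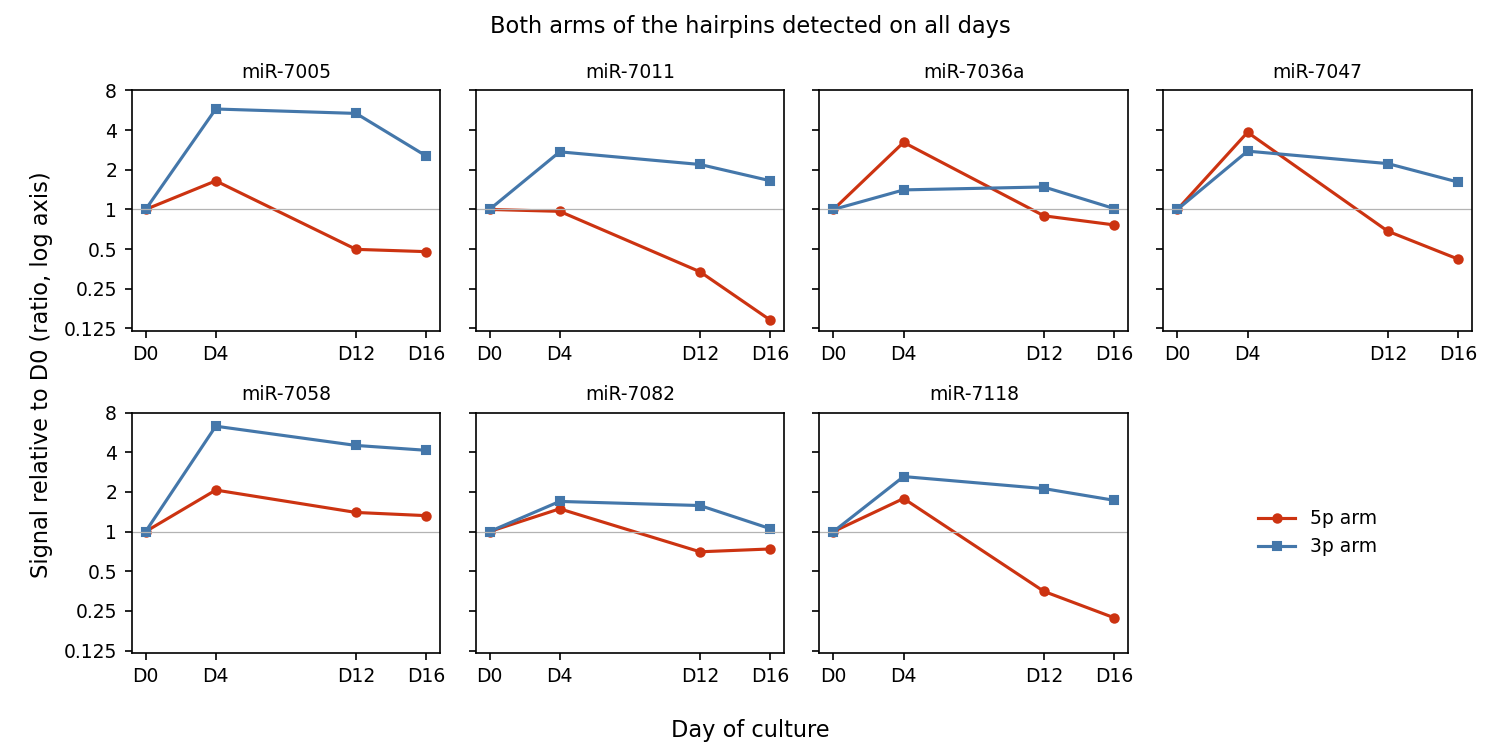
Signal relative to D0 (y axis, ratio, log scale) by day of culture (x axis) for the 5p arm and the 3p arm of the 7 hairpins with both arms detected on all days. At D12 all 7 of the 5p arms lie below their 3p arm. Without scaling, 6 of the 5p arms lie below 1 there and none of the 3p arms does. Where an arm lies relative to 1 depends on the scale.

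Detected members had a median of 50% G (SD 10.1, n = 35) and undetected ones 43.5% (SD 8.44, n = 146). Those detected on all 4 days had 53.3% (n = 18), and each of these 18 held a GGG run. Of members with over 50% G, 15 of 37 (40.5%) were detected on at least 1 day, compared with 13 of 86 (15.1%) between 40 and 50% and 6 of 49 (12.2%) between 30 and 40%. Outside the block, 53.7% of the 41 miRNAs with over 50% G were detected, and 23.3% of the 1243 with at most 40% G. Over all miRNAs of the array the share did not rise evenly: it was 25.3% under 30% G, 15.3% between 30 and 40%, 22.7% between 40 and 50% and 47.4% over 50%. Within bases 2 to 8 the detected and the undetected members had the same median of 57.1% G. In the 3p arms of the block, the facing strand, the detected ones had a median of 45.5% C and the undetected ones 36.4%.

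From D4 to D12, G-rich miRNAs inside and outside the block had the lower ratios. Among members with over 40% G the median D12/D4 was 0.426 (n = 18), and 13 of these 18 were below 0.5-fold. Among the other miRNAs of the array with over 40% G it was 0.452 (n = 36), with 21 below 0.5-fold, and among those with at most 40% G it was 0.918 (n = 246), with 19 below. For D12/D0 the medians were 0.845, 1.06 and 2.11 in the same order. Only 2 members with at most 40% G had a D12/D4 (median 0.814), which is too few to set apart. Over the 20 members with a sequence and a D12/D4, Spearman's rho between the ratio and % G was -0.45 (Pearson's r of the log2 ratio -0.47), and over 302 miRNAs of the array -0.20 (-0.40). For D4/D0 rho was -0.07 over 26 members, and for D12/D0 -0.53 over 22 members and -0.39 over 236 miRNAs. For D16/D0 it was -0.19 over 21 members and -0.31 over 229 miRNAs, and there members with over 50% G had a higher median (0.750, n = 10) than those between 40 and 50% (0.460, n = 7). These describe points that share the same arrays. The detected share moved likewise: for miRNAs outside the block with over 40% G it was 27.2%, 31.5%, 19.6% and 20.1% over the 4 days, and for members with over 40% G 21.1%, 19.5%, 15.4% and 14.6%. What part base composition had in the late fall, through the RNA or through the probes, was not tested.

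**Figure D5:**
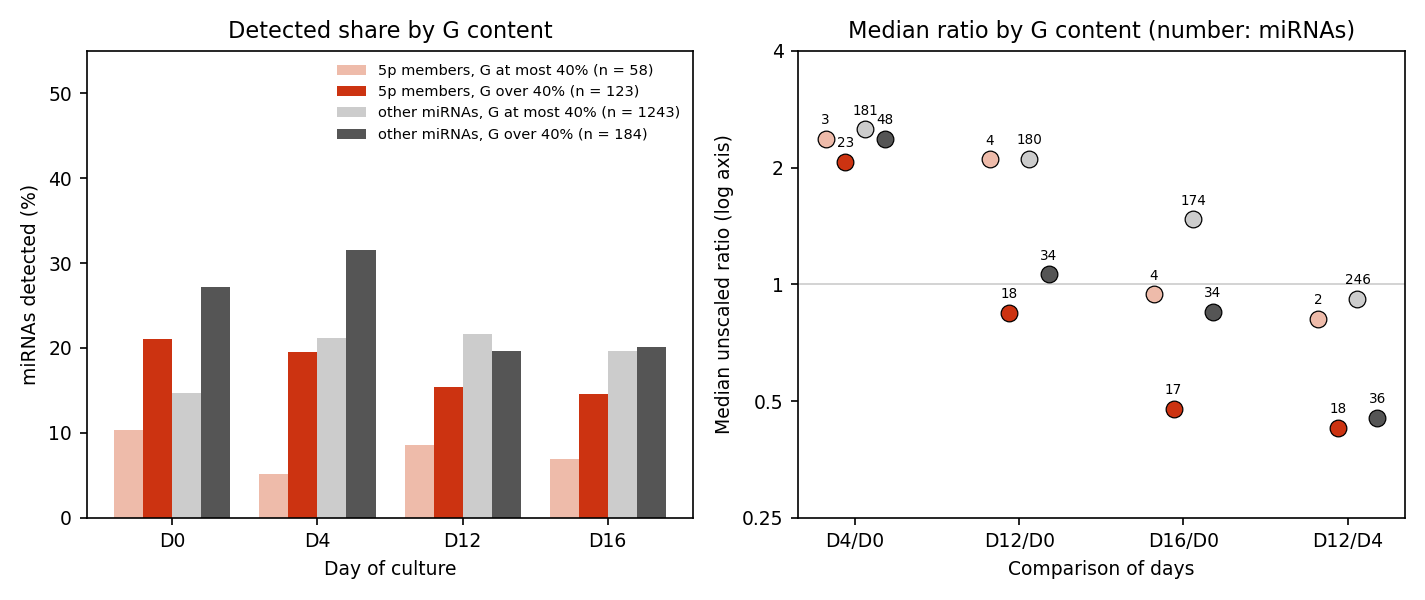
Left, the share of miRNAs detected (y axis, percent) by day for 5p members and for all other miRNAs, split at 40% G. Right, median unscaled ratio (y axis, log scale) for each comparison of days, with the number of miRNAs above each point. At D12/D4 the G-rich members and the other G-rich miRNAs lie side by side, at 0.426 and 0.452, and the other miRNAs with less G at 0.918.

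Seeds were mostly private. The 181 members with a sequence had 159 different seeds, and the 35 detected ones 33. Of the detected members, miR-7047-5p and miR-6965-5p share GAGGGAG, as printed above. Without scaling both were higher at D4 than at D0 (3.85 ± 0.492 and 3.16 ± 0.808), as were 25 of 29 members. At D12 miR-7047-5p was below its D0 signal. miR-6965-5p was not detected at D12, but with all probes summed it read 5.45 at D0 and 5.87 at D12, so the lost call was no fall from D0. The other pair, miR-6927-5p and miR-7070-5p, shares UGAGGGG and took different courses: miR-7070-5p read 9.10 ± 1.34, 9.89 ± 1.83 and 4.71 ± 1.19 and was then not detected, whereas miR-6927-5p appeared at D4 and D12. Each miRNA was read by its own probes, and reading of 1 miRNA by the probes of another was not tested.

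How firmly a member's ratio stands depends on its probes. Each member had 2 probes (195 members) or 3 (10), printed on 30 spots in all. For 7 of the 25 members with a D12/D0 the software summed other probes at D12 than at D0, among them miR-6898-5p, miR-6906-5p, miR-6944-5p, miR-6948-5p and miR-7005-5p. In 14 members at least 2 probes could be compared, and in 11 of these the probes lay on the same side of 1, with a median fold of 1.19 between probes. For D12/D4 the probes lay on the same side in 14 of 14. At D12/D0 the fold limits were passed by more than 2 technical errors in 2 members above (miR-7042-5p and miR-6969-5p) and 2 below (miR-7118-5p and miR-7011-5p).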

How the data were processed

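Exosomal RNA from 3T3-L1 media was labelled with Cy3 and read on SurePrint G3 mouse miRNA arrays, with 1 pool and 1 array per day (D0, D4, D12, D16). The deposited files are scanner tables in which the authors had, with Agilent Feature Extraction (11.0 per the submitters' processing notes), subtracted a background from each spot intensity. The detected probes of a miRNA were summed into a total gene signal. No scaling between arrays followed, but the software set an effective spot size for each array. It was the default of 0.6 at D0 and D16, 0.780 at D4 and 0.760 at D12. Unscaled ratios here keep this difference. The file headers name the build mm9, and coordinates here are those of RefSeq GRCm38.p6, read from a table and not converted.

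From these intensities, ratios between days were taken without scaling, since the methods name none, over miRNAs detected on both days, with the limits of 2-fold and 0.5-fold. For the 7 members that the study listed as downregulated, its D4/D0 and D12/D0 ratios lie below the unscaled ones here. For miR-7036a-5p it gives 0.37, where the unscaled ratio was 0.898 and the quantile-normalized one 0.372. The study's ratios are thus not the unscaled ones used here, and its methods do not name how they were scaled. The technical error of a ratio combines the software's errors of both signals. A limit for an undetected miRNA is the sum over its probes of 3 times their error. Detection was the software's call. The 0.1 listed for undetected miRNAs was not used as a signal in any ratio. It did enter quantile normalization, which ran over all miRNAs, so quantile values of dim members are affected by it. Samples were grouped by the labelled culture day. Precision is limited by having 1 array per day. Python 3.11.15, numpy 2.4.6, pandas 2.3.3 and, for normexp with an offset of 50, limma 3.58.1 in R 4.3.3 were used. Normexp was run on the median spot intensities, since the deposited tables hold no mean ones. Steps were tested on simulated data. Alternatives were the 75th and 90th percentile, quantile normalization, the 4 brightest spike-in RNAs, the probes summed, the left or right of the D0 array, the effective spot size, other detection rules and other fold limits.

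The members and lists were chosen with earlier results of these data known. Members named in the text are the 10 brightest over the days, the 5 largest and 5 smallest D12/D0, the brightest of those detected on some days only, those in the study's tables of changed miRNAs, and those sharing a seed with another detected member. The tables of the study were drawn from these arrays and are not independent.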

Additional observations from a re-analysis of the deposited data

How the results depend on the processing

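No result was tested, so the alternatives show only how values move. No paired analysis was possible because each day has 1 array and no value comes from a test. Nothing was left out in turn for the same reason, except that D12/D4, with its alternatives, was chosen after seeing the data to leave out the uneven D0 array.

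In the order D4/D0, D12/D0 and D16/D0, the members' median of 2.26, 1.17 and 0.750 became 0.532, 0.355 and 0.331 with the 75th percentile, 0.766, 0.504 and 0.470 with the 90th percentile, 0.670, 0.372 and 0.385 with quantile normalization, and 1.24, 0.679 and 0.589 with the spike-in RNAs. It was 2.73, 1.40 and 0.892 with the left of the D0 array. The right gave 1.89 for D4/D0 and 0.587 for D16/D0, dividing out the spot size 1.74 and 0.923 for D4/D0 and D12/D0, and normexp 1.18 and 0.938 for D4/D0 and D16/D0. For D12/D4 the median of 0.476 became 0.616, 0.607 and 0.579 with both percentiles and quantiles, and 0.742 with normexp.

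Of 17 members above 2-fold at D4/D0, 0, 1, 1 and 5 were above with the 75th and 90th percentile, quantiles and spike-in RNAs, 11 without the spot size, 3 with normexp, 7 past 2 errors and 10 among brighter members. Below 0.5-fold there were 14, 7, 8, 2 and 1 in the first 5 of these settings in place of 0, and 1 at the limit of 1.5-fold. At D12/D0 the 6 above became 0, 0, 0, 1, with all probes 3, normexp 1, past 2 errors 2 and brighter members 3. The 4 below became 19, 12, 16 and 9 under the scalings, 2 with shared or with all probes, 1 with normexp and 2 past 2 errors. At D16/D0 the 5 above became 0, 1, 2 and 3 under the scalings, 3 with the right of the D0 array, 1 with normexp and 2 past 2 errors. The 10 below became 17 with the 75th percentile, 6 with shared probes, 5 with all probes, 6 with the left of D0, 1 with normexp and 5 past 2 errors. At D12/D4 the 13 below became 8 with either percentile, 4 with normexp and 8 past 2 errors.

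Requiring 50% of the spots of a probe above background left 24, 25, 16 and 15 members detected in the order of days. The count was then highest at D4 and not at D0. The share of all miRNAs under that rule is not given here. The share at D0 was 6.0% over miRNAs detected on all days. In bases 2 to 8 the median G content was 57.1% in undetected and in detected members alike, so their difference was lost. Single D12/D0 ratios turned with the 75th percentile for miR-6906-5p (0.797), miR-6948-5p (0.846), miR-6969-5p (0.908) and miR-7040-5p (0.663), with the 90th for miR-7040-5p (0.941), and with quantiles for miR-6906-5p (0.910) and miR-6948-5p (0.946). Of 170 alternative values for 17 named members, 44 stayed within their error, 119 moved and these 7 turned. Apart from the scalings themselves, the cause of a move was not tested. Most members sit near the detection limit, with 6.02% to 10.6% of member spots well above background, so ratios of the dim ones are imprecise.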
